A study of Mus musculus with 6 samples.

Results

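The myogenic regulatory factors Myod1, Myog, Myf5 and Myf6 and the paired-box genes Pax3 and Pax7 were examined as 6 genes chosen by name, and no measured value entered the choice. They were read by 7 of the 39429 probes on the array, out of 20659 gene symbols that could be assigned to probes. RNA came from C2C12 cells, a mouse skeletal myoblast line that fuses into myotubes once serum is withdrawn. In si-SYISL (3 arrays) the cells were transfected with small interfering RNA that targets SYISL, a long non-coding RNA, and in si-NC (3 arrays) with a control oligonucleotide. Cells of both groups were grown in 10% fetal bovine serum before transfection and were then kept for 2 days in 2% horse serum. The comparison asks how transcript levels of C2C12 cells at 2 days of differentiation differ between si-SYISL and si-NC. One cell line was used, and the level of SYISL is not given because 0 probes carried its name.

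Myod1, Myog, Myf5 and Myf6 encode basic helix-loop-helix transcription factors that pair with E proteins, bind the E-box CANNTG and switch on muscle genes. Myf5 and Myod1 commit cells to the muscle lineage, Myog is needed for myoblasts to differentiate into fibres, and Myf6 (also called MRF4) acts in determination and again in maturing fibres. Pax3 and Pax7 encode paired-homeodomain factors of embryonic muscle precursors, and Pax7 marks the satellite cells of adult muscle. In C2C12 cells growing myoblasts express Myod1 and Myf5, and Myog is induced on serum withdrawal.

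The promoters of Myog and Myf5 are shown because Myog is a textbook target of MyoD family and Mef2 factors acting on this window, whereas Myf5 is controlled largely by distant enhancers. Both sequences run from 250 bases before to 50 bases after an annotated start (RefSeq, GRCm38.p6), and 3 of the 6 genes had an entry. The Myog window lies at chr1:134289754-134290053 on the plus strand and the Myf5 window at chr10:107486085-107486384 on the minus strand. Capitals mark E-boxes (CANNTG), a MEF3 element (TCAGGTTTC) and an A/T-rich Mef2 core (TATATTTAT), all searched on both strands.
Myog: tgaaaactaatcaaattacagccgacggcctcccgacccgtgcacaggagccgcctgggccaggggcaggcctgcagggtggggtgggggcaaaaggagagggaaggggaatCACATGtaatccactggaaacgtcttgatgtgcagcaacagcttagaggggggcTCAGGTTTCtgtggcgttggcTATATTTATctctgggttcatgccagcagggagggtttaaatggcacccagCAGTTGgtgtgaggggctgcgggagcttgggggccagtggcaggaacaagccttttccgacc
Myf5: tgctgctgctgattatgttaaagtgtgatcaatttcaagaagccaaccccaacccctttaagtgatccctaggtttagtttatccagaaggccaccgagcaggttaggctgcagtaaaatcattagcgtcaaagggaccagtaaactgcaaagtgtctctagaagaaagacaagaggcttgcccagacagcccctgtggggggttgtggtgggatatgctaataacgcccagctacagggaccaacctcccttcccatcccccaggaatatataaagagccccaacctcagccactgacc
In Myog the E-boxes CACATG and CAGTTG began at positions -138 and -12 from the start, MEF3 at -84 and the Mef2 core at -63, and none of these matches overlapped. The letters of the MEF3 and Mef2 motifs were chosen with the Myog promoter in view. The windows of Myf5 and Pax7 held 0 matches to each of the 3 motifs. Both windows lie inside the annotated spans of their genes, so this says nothing of sequence near an outer start. Among 32851 promoter windows of this length, 72.3% held at least 1 E-box and 39.6% at least 2, while 0.429% held the MEF3 letters and 0.469% the Mef2 core.

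In each group, replicates 1 and 3 were as alike as spots of a single probe on 1 array. Over 399 probes printed on several spots, chi-square per probe was 0.214 to 0.252 in these 2 pairs of arrays and 24.7 to 163 in the other 13 pairs. These pairs differed by less than the sampling noise, so each was averaged and entered every comparison as a single sample, giving 2 for si-SYISL and 2 for si-NC. Nothing in the labels ties the replicates to separate cultures. The p-values therefore reflect spread among these samples alone, which may be technical. Spots well above background made up 87.9% to 90.6% of those on si-SYISL arrays and 78.2% to 84.6% of those on si-NC arrays, and 0 spots were saturated. With 2 samples against 2, an exact two-sided permutation test of a single gene cannot give a p below 0.333. Of 10 skeletal muscle markers, 10 were above background, with a summed signal of 115.5 to 121.3 times the array's 75th percentile on si-SYISL arrays and 79.2 to 87.7 times on si-NC arrays. Myl1 alone gave 36.1% to 37.1% of this sum on si-SYISL arrays and 37.3% to 40.8% on si-NC arrays. Over samples, 8 of the 10 markers were higher in si-SYISL without overlap between groups and 0 were lower. The shares among all features were 46.4% and 15.8%. Des and Cdh15 overlapped and stood below the median difference of all features. In bulk RNA, fewer cells of a type and less RNA per cell cannot be told apart.

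Of the 6 genes, each read by its brightest probe, Myod1 was the one whose groups did not overlap. Its signal, in background-subtracted intensity units, was 2749, 2618 and 3036 on si-SYISL replicates 1 to 3 and 4462, 5289 and 4867 on si-NC replicates 1 to 3. Expressed as log2 relative to the 75th percentile of each array's signals, called its level from here on, these were 0.16, 0.37 and 0.18 in si-SYISL and 0.88, 0.90 and 0.87 in si-NC. All si-SYISL arrays lay below all si-NC arrays.

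The median log2 difference of all 28563 tested features (18638 named genes and 9925 unnamed probes) was 0.16, higher in si-SYISL. Differences are therefore given as si-SYISL minus si-NC relative to that median, whereas the adjusted p tests the difference before this subtraction. The unadjusted p and the overlap between groups also rest on values before subtraction. A feature can thus be higher without overlap and still stand below the median. On this scale Myod1 differed by -0.78 ± 0.13 (SE, 2 samples in each group, 95% interval -1.12 to -0.44), a ratio of 0.583, with a limma adjusted p of 0.131. Before subtraction the difference was -0.61. A lower difference than that of Myod1 was found in 3.43% of features.

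**Figure D1:**
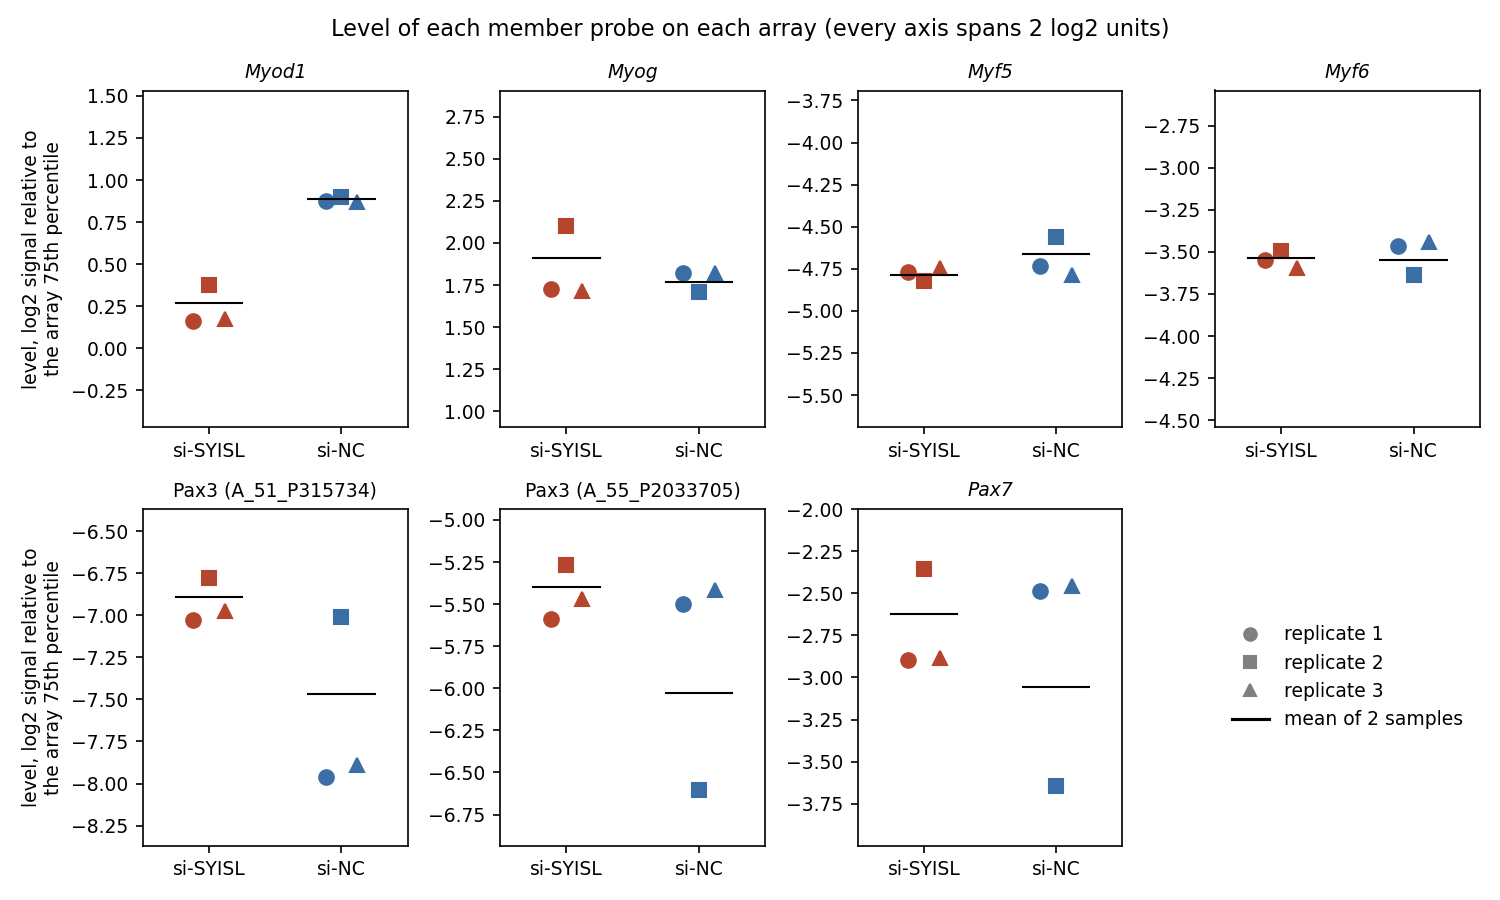
Level of each of the 7 probes of the myogenic regulatory factors and Pax genes on each array, as log2 signal relative to the array's 75th percentile, with si-SYISL left of si-NC. Symbols are replicates, lines are means of 2 samples (replicates 1 and 3 averaged first), and every axis spans 2 log2 units. Myod1 lies between 0.16 and 0.37 in si-SYISL and between 0.87 and 0.90 in si-NC.

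At an adjusted p of 0.05 limma called 0 of the 6 genes and 0% of all features, the smallest adjusted p over all features being 0.0846. At an unadjusted p under 0.05, 0 of the 6 were higher, against 16.8% of all features, and 1, Myod1, was lower, against 5.85%. Of the 6 genes, 0 had si-SYISL above si-NC in every pairing of samples (46.4% of all features) and 1 had it below (15.8% of all features). The second, dimmer Pax3 probe had si-SYISL above si-NC over samples. It was kept through the si-SYISL arrays alone, so it is not counted. The median difference of the 6 genes was -0.08, that of all features being 0 by construction.

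The call for Myod1 depended on how the error was modelled. It passed with a variance trend in limma (adjusted p = 0.0448), where 1.17% of all features were called lower, and with the 6 arrays taken as 6 samples (adjusted p = 0.00372), where 9.36% were. Taking 6 samples counts the near-identical arrays separately.

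Myod1, Myog, Myf5 and 1 of the Pax3 probes were each printed on 10 spots. The 30 Myod1 spots of the si-SYISL arrays had levels from 0.02 to 0.42 and the 30 of the si-NC arrays from 0.74 to 1.05, with no overlap. Spots of 1 array differed by an SD of 0.05 to 0.099 for Myod1, which measures printing and scanning only and not differences between cultures.

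**Figure D2:**
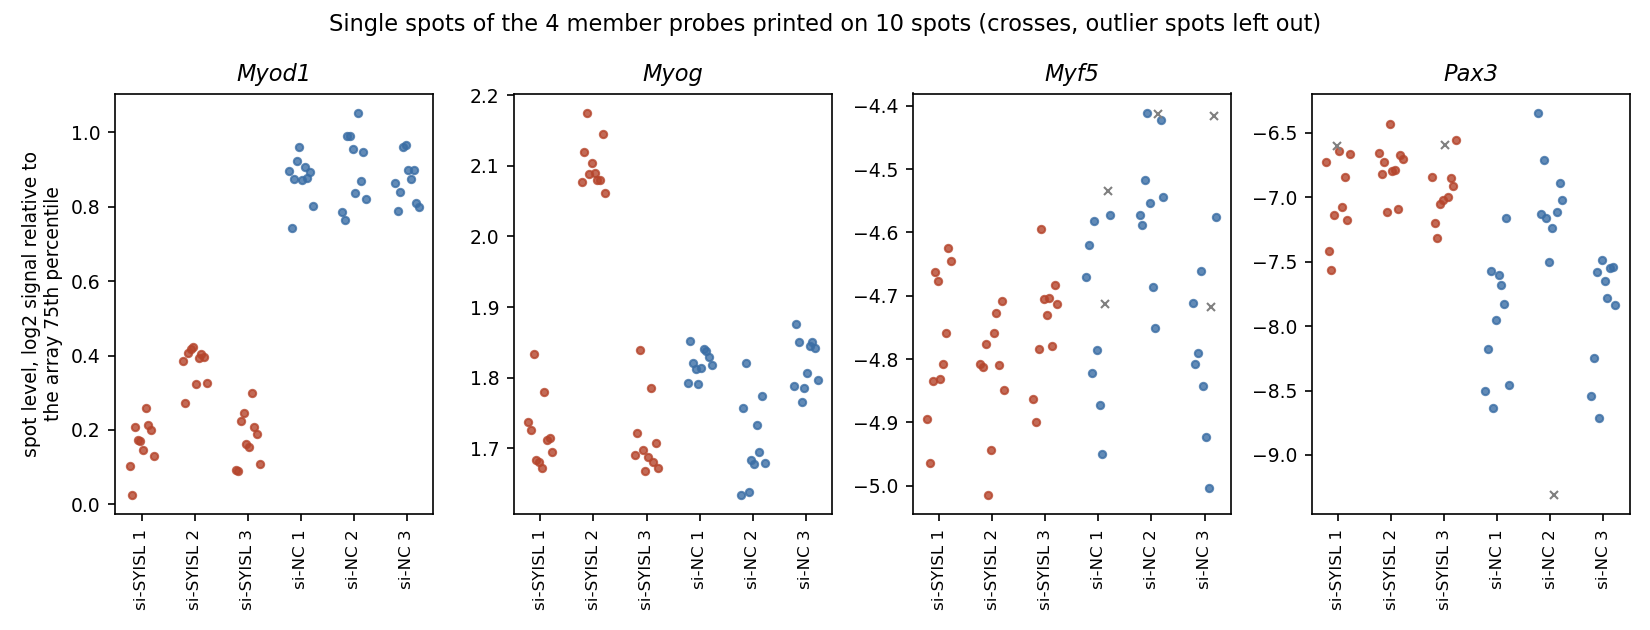
Levels of single spots of the 4 probes printed on 10 spots, by array, with the si-SYISL arrays left of the si-NC arrays. Each point is 1 spot on the log2 scale relative to the array's 75th percentile, and crosses are outlier spots that were left out. Myod1 spots reach at most 0.42 on si-SYISL arrays and start at 0.74 on si-NC arrays, while the other 3 probes overlap between groups.

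Myf5, the other determination factor, was dim, at 90.0, 71.4 and 100.1 intensity units on the si-SYISL arrays and 91.4, 120.0 and 96.3 on the si-NC arrays. Its levels were -4.77, -4.82 and -4.75 in si-SYISL and -4.73, -4.56 and -4.79 in si-NC, so the groups overlapped. All 10 of its spots were well above background on every array. The difference was -0.29 ± 0.13 (95% interval -0.63 to 0.05, adjusted p = 0.540), and before subtraction -0.13.

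Myog, which drives terminal differentiation, was bright in both groups. The signal was 8110, 8667 and 8814 on si-SYISL arrays and 8596, 9259 and 9406 on si-NC arrays. Its levels were 1.72, 2.10 and 1.72 in si-SYISL and 1.82, 1.71 and 1.82 in si-NC. The si-SYISL replicate 2 array lay above the si-NC arrays, and si-SYISL replicates 1 and 3 lay within their range. The 10 spots of that replicate ranged from 2.06 to 2.18, against 1.63 to 1.88 for the 30 spots of the si-NC arrays.

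Myog differed by -0.02 ± 0.17 (95% interval -0.48 to 0.44, adjusted p = 0.602), and 47.4% of features had a lower difference. The interval holds values of either sign, and the sign varied with the sample: the difference was 0.14 with si-SYISL replicates 1 and 3 left out and -0.16 with si-SYISL replicate 2 left out.

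Myf6, which lies close to Myf5 on chromosome 10, was read by 1 spot per array. Its levels were -3.55, -3.50 and -3.60 in si-SYISL and -3.47, -3.64 and -3.44 in si-NC. The si-SYISL values lay inside the range of the si-NC values. The difference was -0.15 ± 0.13 (95% interval -0.49 to 0.19, adjusted p = 0.952), and before subtraction 0.01.

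Within an array, the ratio of Myod1 to another probe does not depend on how the array is scaled. With the si-NC mean set at 0, the log2 ratio of Myod1 to Myog was -0.68, -0.85 and -0.66 in si-SYISL and -0.07, 0.07 and -0.07 in si-NC. The mean difference was -0.76 for Myog, -0.49 for Myf5 and -0.63 for Myf6. It was -1.25 for the brighter Pax3 probe and -1.05 for Pax7, and for each of these 5 probes the si-SYISL arrays lay below the si-NC arrays. All of these ratios share the Myod1 values. They show unequal change between the probes and not that the other probes stayed constant.

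The 2 probes of Pax3 did not order the arrays alike. The brighter one, which stood for the gene in the fit, had levels of -5.59, -5.27 and -5.47 in si-SYISL and -5.50, -6.60 and -5.41 in si-NC. On it, si-NC replicate 2 was the lowest array and the other 5 lay together. The second probe had levels of -7.03, -6.78 and -6.97 in si-SYISL and -7.96, -7.01 and -7.89 in si-NC. On that probe si-NC replicates 1 and 3 were the low arrays. The arrays overlapped between groups, while over samples, with replicates 1 and 3 averaged, both si-SYISL values (-7.00 and -6.78) lay above both si-NC values (-7.93 and -7.01).

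The second Pax3 probe was at the edge of detection. Of its 10 spots, 8, 7 and 10 were well above background on si-SYISL replicates 1 to 3, against 0, 5 and 0 on si-NC replicates 1 to 3. The probe was kept through the si-SYISL arrays, so no difference is given for it. Its spot SD of 0.20 to 0.48 was the widest of the 4 probes printed on 10 spots. Median local background was 34.5 and 34 units on the si-SYISL arrays and 42 and 36 on the si-NC arrays of the first scan, and 40.5 and 50 units on those of the second, so it was lower in si-SYISL within each scan. With normexp background correction in place of the scanner's own, followed by quantile normalisation, the brighter Pax3 probe differed by 0.13 ± 0.14 (adjusted p = 0.607).

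Pax3 differed by 0.47 ± 0.41 (95% interval -0.64 to 1.58, adjusted p = 0.374) on the brighter probe. Without si-NC replicate 2 the brighter probe's difference was -0.080. Without si-NC replicates 1 and 3 it was 1.03 and passed (adjusted p = 0.0406), in a fit that called 3.82% of all features higher and rests on 1 si-NC sample.

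Pax7 was read by 1 spot per array, with signals of 330.0, 394.3 and 363.8 on si-SYISL arrays and 434.2, 226.8 and 484.8 on si-NC arrays. Its levels were -2.90, -2.36 and -2.88 in si-SYISL and -2.49, -3.64 and -2.46 in si-NC. The groups overlapped: si-SYISL replicate 2 was the highest array and si-NC replicate 2 the lowest, as on the brighter Pax3 probe. Pax7 differed by 0.27 ± 0.45 (95% interval -0.93 to 1.47, adjusted p = 0.553), and by -0.29 without si-NC replicate 2.

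**Figure D3:**
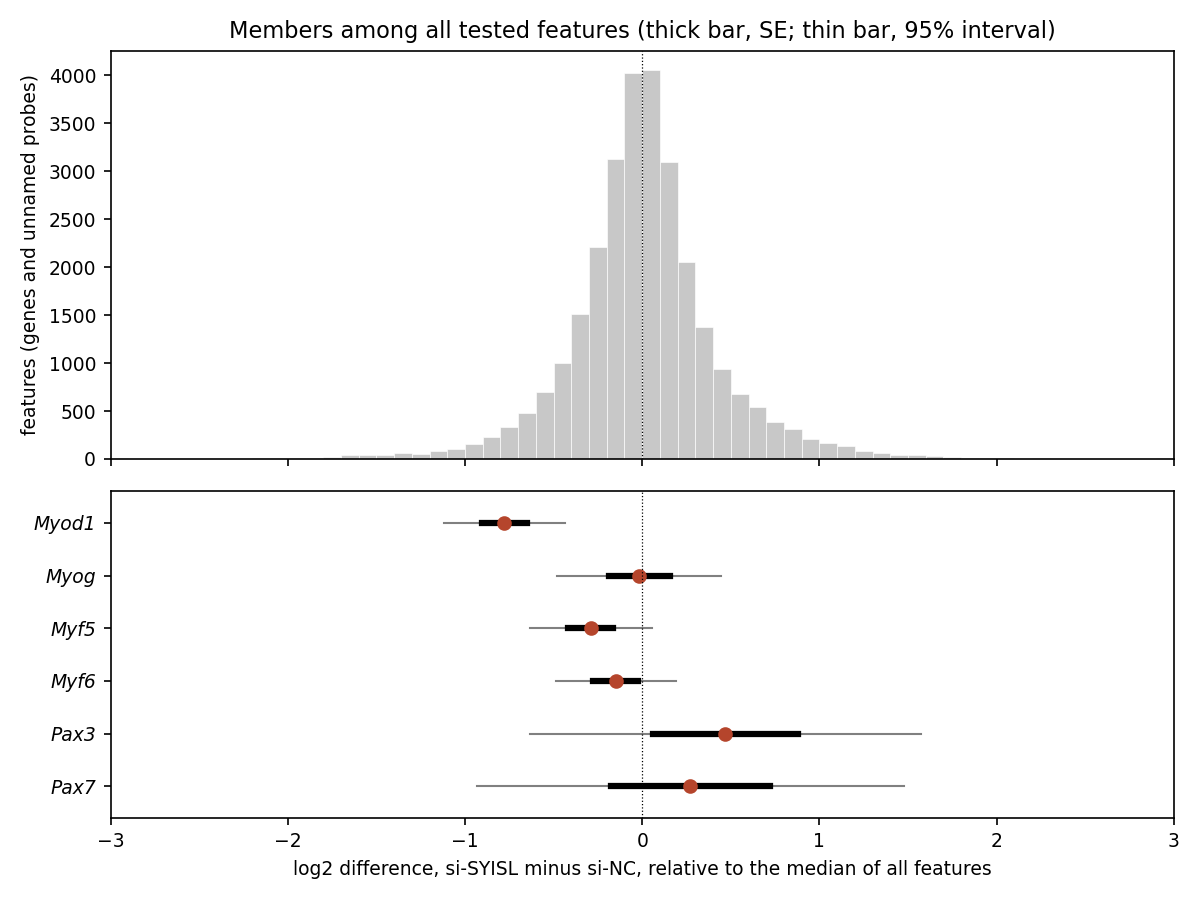
The upper panel counts all tested features by log2 difference, si-SYISL minus si-NC, relative to the median of all features. The lower panel gives the 6 genes on the same axis, with the SE as a thick bar and the 95% interval as a thin one. Myod1 stands at -0.78 with its interval below 0, and the intervals of the other 5 genes include 0.

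Replicates 1 and 2 of both groups were scanned together and replicate 3 of both groups in another scan. The si-NC arrays were at slide positions 1 and 2 and the si-SYISL arrays at positions 3 and 4. Slide position and group therefore cannot be told apart. In the first scan alone, Myod1 differed by -0.78 ± 0.13 (adjusted p = 0.137), and in the second, which has 1 array in each group and no test, by -0.79. The replicate 3 arrays of the second scan were near-identical to those of replicate 1, so the second value is not independent of the first. With the scan as a block Myod1 differed by -0.78 ± 0.12 (adjusted p = 0.101). For Pax3 and Pax7 the first scan gave 0.46 and 0.28 and the second -0.15 and -0.52, so their sign differed between scans. The replicate 1 arrays of the first scan gave the order of the second scan: Pax7 was at -2.90 in si-SYISL and -2.49 in si-NC on them, against -2.88 in si-SYISL and -2.46 in si-NC on the replicate 3 arrays. For Pax3 these levels were -5.59 in si-SYISL and -5.50 in si-NC, against -5.47 in si-SYISL and -5.41 in si-NC. The positive differences of the first scan thus came with its replicate 2 arrays.

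**Figure D4:**
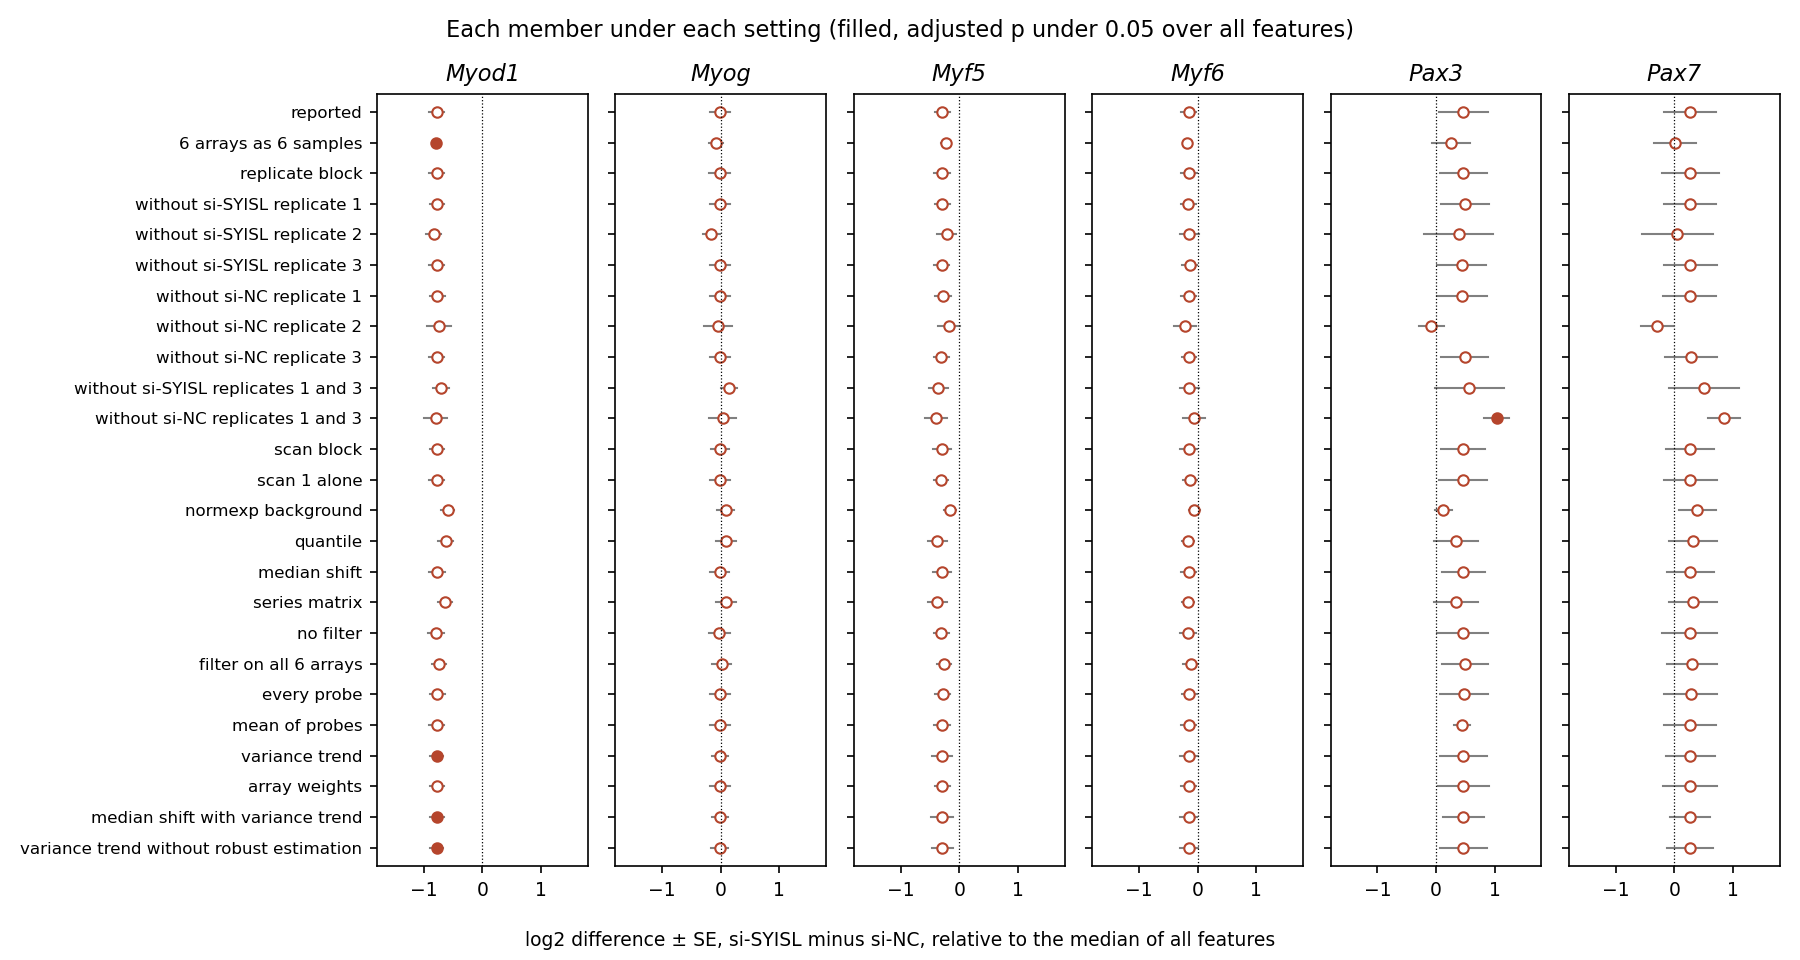
Log2 difference of each of the 6 genes, si-SYISL minus si-NC relative to the median of all features, under the reported fit and 24 other settings (rows). Bars are SE and filled points have an adjusted p under 0.05 over all features. Myod1 ranges from -0.83 to -0.59 and passes under 4 settings, whereas Pax3 ranges from -0.08 to 1.03 and Pax7 from -0.29 to 0.85.

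Direct and classical targets of MyoD and myogenin, many of which build the contractile and excitable fibre, were a list of 25 genes, all of them tested. The skeletal muscle markers summed above, except Ttn, all stand in this list, so markers and targets are not independent. Of these, 13 were higher and 0 lower at an unadjusted p under 0.05 (background 16.8% and 5.85%), 0 passed over all features, and the median difference was 0.32. Without overlap between groups, on levels before subtraction, 17 targets were higher in si-SYISL (background 46.4%) and 3 were lower (background 15.8%). Some of the 17 stood below the median of all features. Tnni2, the fast troponin I, had levels of 3.77 and 3.85 in the si-SYISL samples and 2.77 and 2.70 in the si-NC samples (difference 0.91 ± 0.11, adjusted p = 0.0846). Myl4, the myosin light chain of embryonic muscle, differed by 0.92 ± 0.12 (adjusted p = 0.0940). The difference was 0.65 ± 0.15 for Ckm, which encodes muscle creatine kinase (adjusted p = 0.124), and 0.62 ± 0.12 for Myh3, which encodes embryonic myosin heavy chain (adjusted p = 0.115). Mef2c, a MADS-box partner of the MyoD family, overlapped between groups and differed by 0.01 ± 0.18 (adjusted p = 0.566). Mef2c was dim, with levels of -4.95 and -5.36 in the si-SYISL samples and -5.25 and -5.40 in the si-NC samples. Relative to the median of all features, Myod1 stood below and 16 of the 25 targets above, where 14281 of all 28563 features stood above by construction.

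Partners and regulators of the MyoD family, the E proteins, Id proteins, Mef2 factors, repressors and chromatin cofactors, were 41 genes, of which 40 were tested and Twist1 was not above background. The list mixes activators with inhibitors. At an unadjusted p under 0.05, 1 was higher and 9 were lower (background 16.8% and 5.85%), 0 passed over all features, and the median was -0.37. Without overlap between groups, 21 were lower in si-SYISL (background 15.8%) and 9 were higher (background 46.4%). Msc, a basic helix-loop-helix repressor that competes with MyoD at E-boxes, had levels of -5.23 and -5.15 in the si-SYISL samples and -3.86 and -3.82 in the si-NC samples. It differed by -1.51 ± 0.11 (adjusted p = 0.0846).

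Among the dimerisation partners, the E protein gene Tcf12 differed by -0.41 ± 0.13 (adjusted p = 0.302). The inhibitors Id1 and Id3, which bind E proteins without contacting DNA, differed by -0.61 ± 0.17 (adjusted p = 0.230) and -0.36 ± 0.12 (adjusted p = 0.351). Tcf12, Id1 and Id3 were each lower in si-SYISL without overlap between groups. Other members of these families, named after their values were seen, did not all stand this way. The E protein gene Tcf4 was higher without overlap, at 2.52 and 2.59 in the si-SYISL samples and 2.35 and 2.49 in the si-NC samples. Relative to the median of all features Tcf4 differed by -0.03 ± 0.12 (adjusted p = 0.494), and before subtraction by 0.13. The related Tcf3 was lower without overlap (-0.61 ± 0.12, adjusted p = 0.160) and Id2 overlapped. Mdfi, the I-mfa inhibitor that holds MyoD family proteins in the cytoplasm, was the 1 partner counted as higher. It was well above background on 1 of the 3 si-NC arrays and was kept through the si-SYISL arrays, so no difference is given. Over the 38 partners well above background on all 6 arrays, 0 were higher and 9 lower at an unadjusted p under 0.05, against 14.1% and 6.51% of the 25190 features so detected.

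Genes of muscle precursors and satellite cells, the setting in which Pax3 and Pax7 act, were 25, of which 24 were tested and Meox2 was not above background. At an unadjusted p under 0.05, 7 were higher and 2 lower (background 16.8% and 5.85%), 0 passed over all features, and the median was 0.01. Without overlap between groups, 11 were higher in si-SYISL (background 46.4%) and 5 lower (background 15.8%). The 7 include Meox1 and Tcf21, which were well above background on 0 of the 3 si-NC arrays and were kept through the si-SYISL arrays. Over the 21 genes well above background on all 6 arrays, 5 were higher and 2 lower, against 14.1% and 6.51% of all features so detected, and the median was -0.03. Itm2a, a membrane protein gene, had levels of -2.70 and -2.06 in the si-SYISL samples and -4.21 and -4.32 in the si-NC samples (difference 1.71 ± 0.24, adjusted p = 0.103). For the somite homeobox gene Meox1, kept through the si-SYISL arrays alone, no difference is given. Mef2c and the receptor gene Fgfr4 stand in 2 of the 3 lists.

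**Figure D5:**
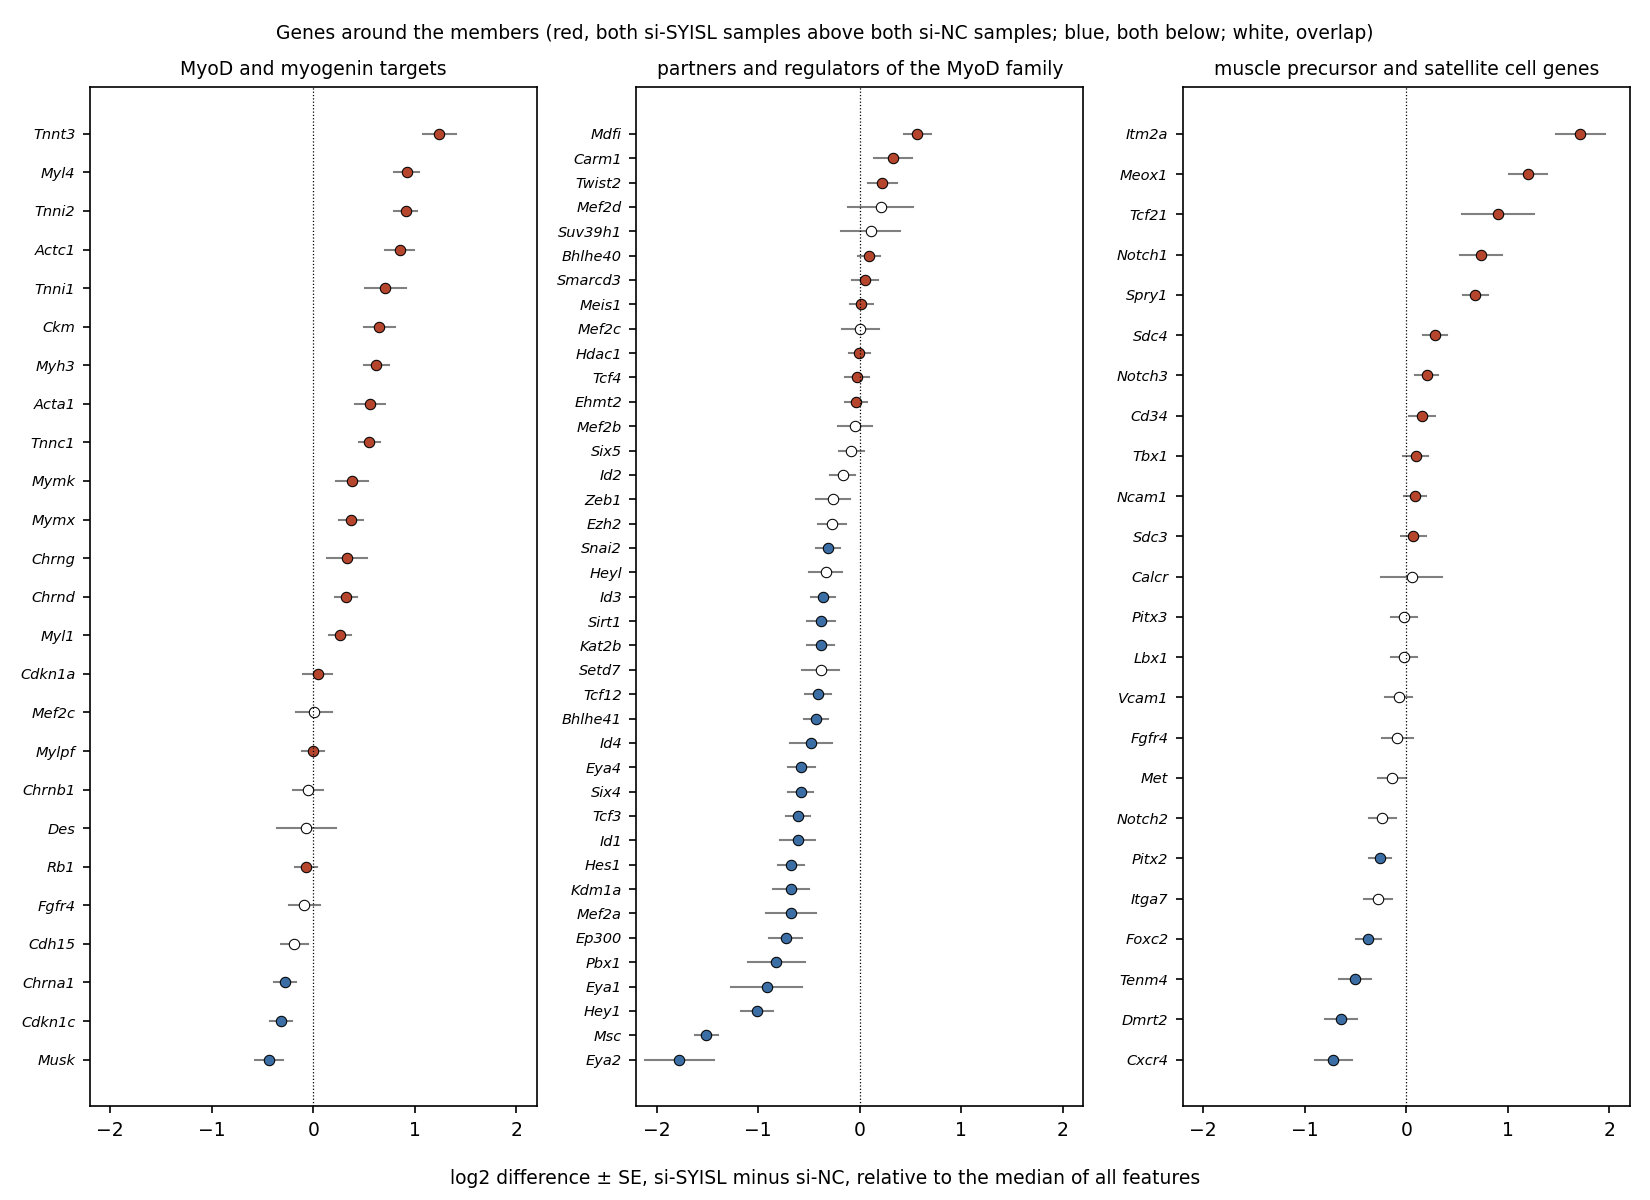
Log2 difference ± SE, si-SYISL minus si-NC relative to the median of all features, of genes tested in the 3 lists around the MyoD family and Pax3/Pax7. Red points have both si-SYISL samples above both si-NC samples, blue points both below, and white points overlap. Colours rest on levels before subtraction of the median, so some red points lie below 0. Red points number 17 in the targets, 9 in the partners and 11 in the precursor genes, where 46.4% of all features were higher without overlap. Mdfi, Id4, Calcr, Meox1 and Tcf21, which were not well above background on every si-NC array, are drawn at their fitted values.

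Summed signals of markers of other cell types rested heavily on single bright genes, which are named after their values were seen. The counts without overlap given with them stand beside 46.4% of all features higher and 15.8% lower. The summed signal of fibroblast and tendon markers (7 of 8 kept, Tnmd not) was 55.8 to 57.9 times the array's 75th percentile on si-SYISL arrays and 40.5 to 43.0 times on si-NC arrays, with Col1a1 giving at least 73.6% of it on every array. Of these 7 markers, 3 were higher without overlap, 0 were lower and the others overlapped, with Pdgfra, Dpt and Lum below the median of all features. The 3 include Tcf21, which was well above background on 0 of the 3 si-NC arrays and was kept through the si-SYISL arrays. The sum of adipocyte markers (6 of 7, Lep not) was 2.02 to 2.12 times in si-SYISL and 2.29 to 2.36 times in si-NC, with Pparg giving at least 53.8% of it. One of the 6, Fabp4, was higher without overlap, 1, Pparg, was lower, and the others overlapped. The sum of osteoblast and chondrocyte markers (7 of 8, Bglap having no probe) was 1.11 to 1.31 times in si-SYISL and 1.71 to 2.03 times in si-NC, with Sox9 giving at least 72.1% of it. Sox9 was the 1 of these 7 that was lower without overlap, while 3 (Alpl, Acan and Col2a1) were higher. Neural crest and Schwann cell markers (6 of 8, the defining genes Tfap2b and Foxd3 not above background) summed to 2.03 to 2.46 times in si-SYISL and 2.21 to 2.32 times in si-NC, which overlap, and 2 were higher and 1 lower without overlap. One of the 2, Dct, was well above background on 1 of the 3 si-NC arrays and was kept through the si-SYISL arrays. Mitf gave 63.2% to 69.2% of the neural crest and Schwann cell sum. Endothelial and blood cell markers (7 of 8, Cd68 having no probe) summed to 1.38 to 1.46 times in si-SYISL and 1.22 to 1.31 times in si-NC, and 4 were higher and 0 lower without overlap. Among the 4, Lyz2 was well above background on 1 of the 3 si-NC arrays and was kept through the si-SYISL arrays. Kdr gave 47.1% to 50.2% of the endothelial and blood cell sum. The part of these markers in the values of the 6 genes was not tested.

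Genes of most similar pattern were found as the smallest root mean square distance between centred log2 levels over the 4 samples, among 17494 named genes. For Myod1 they were Zfp617 (distance 0.02), Pkp3 (0.02) and Klhdc2 (0.03), and 34 genes lay within 0.05. For Myog they were Samd8, Npffr1 and Slc35f1, with 155 genes within 0.05, and for Myf5 they were Gcsh, LTO1 and Snx4, with 250. For Myf6 they were Scgb1b3, Gng5 and Tfdp1, with 275. Members that varied little across the samples thus had many genes near them. For Pax3 the nearest were Fgf11 (0.02), Lrrc36 (0.02) and Cercam (0.04), with 11 within 0.05, and for Pax7 Cryzl2 (0.03), Olfr215 (0.07) and Vmn1r8 (0.07), with 1 within 0.05.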

How the data were processed

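Deposited scanner files hold, per the file headers, single-colour intensity (gProcessedSignal) that Feature Extraction 11.0.1.1 had background-subtracted and detrended within each array; the submitters' processing notes give version 10.5.1.1. The deposited files also hold median pixel intensity of spot and local background, and 0 or 1 flags (unit other, per the file headers). The deposited series matrix, used as an alternative, holds log2 values of 34456 probes with a median of 8.58 on each array and correlates with the log2 scanner signal. Its scale was taken as log2, which no source used here states.

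Control and outlier spots were left out, except where a probe had only outlier spots on an array (24 values), and log2 signals, less the array's 75th percentile, were averaged over a probe's spots. A probe was kept when at least 0.5 of its spots were well above background on all 3 arrays of a group, and a gene was its brightest kept probe. Probes were named through RefSeq accessions (GRCm38.p6), which gave 27234 probes a symbol. Probe coordinates are left out, since the design was made on a different assembly. Groups were compared in R 4.3.3 with limma 3.58.1 (lmFit and eBayes, two-sided) and Benjamini-Hochberg adjustment over all features, at a threshold of 0.05, after tests on simulated data. The prior had 2.36 and the samples 2 degrees of freedom. Files were read with the R package data.table (version 1.17.8), and figures were drawn with Python 3.11.15, pandas 2.3.3, numpy 2.4.6 and matplotlib 3.10.9. Precision is limited by the number of arrays.

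The members, lists and tests were chosen with earlier results of these data known, including the averaging of replicates 1 and 3. Of each list, the text names the 2 genes with the smallest p, and Ckm, Myh3, Mef2c, Tcf12, Id1, Id3 and Msc, and for each member the 3 most similar genes with a full symbol. Twist1, Meox2, Fgfr4, Tcf21, Id4, Calcr, Dct, Lyz2, Ttn and the markers left out are named for their detection or list membership. Des, Cdh15 and Myl1 were named after their values were seen. The values of 1 gene of the partner list, which is in that list's counts, are not reported here. Alternatives were normexp background (offset 50, on median pixel intensity), quantile and median-shift normalisation, the series matrix, other filters, every probe or the mean of probes, a variance trend, array weights, scan and replicate blocks, and samples left out.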

Additional observations from a re-analysis of the deposited data

How the results depend on the processing

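Over 24 alternative settings Myod1 was below the median of all features in 24, and so were Myf5 (-0.40 to -0.16) and Myf6 (-0.22 to -0.05), neither of which passed under any of them. The replicate block, median shift, array weights and variance trend settings left the differences of the 6 genes at the reported values. The sign under those settings therefore adds nothing to the reported fit. Myod1 ranged from -0.83 to -0.59 (adjusted p from 0.00372 to 0.289). It passed as the one member called lower with a variance trend (-0.78, adjusted p = 0.0448), with 6 arrays as 6 samples (-0.79, adjusted p = 0.00372), and with 2 settings chosen after seeing the data, a variance trend without robust estimation (-0.78, adjusted p = 0.0488) and with a median shift (-0.78, adjusted p = 0.0361). Quantile normalisation, the series matrix and normexp moved the median of all features from 0.16 to 0.03, 0.03 and 0.01 and Myod1 to -0.63, -0.63 and -0.59. Myog was above the median with normexp (0.085), quantile (0.092), the series matrix (0.091) and the filter on all 6 arrays (0.013). It was also above it without si-SYISL replicates 1 and 3 (0.14) and without si-NC replicates 1 and 3 (0.030), and ranged from -0.16 to -0.014 with single replicates left out. With single replicates left out Pax3 ranged from -0.080 to 0.50 and Pax7 from -0.29 to 0.28, the lowest values being those without si-NC replicate 2. Without si-NC replicates 1 and 3, where the lone si-NC sample is assumed to vary like the si-SYISL samples, Pax3 was 1.03 (adjusted p = 0.0406), the 1 member called higher.

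Counts of calls over all features at an adjusted p of 0.05, higher and lower, were 0 and 0 in the reported fit. With 6 arrays as 6 samples they were 7082 and 2674, with 13 targets higher and 1 lower, 5 partners higher and 13 lower, and 11 precursor genes higher and 3 lower. With a variance trend they were 552 and 333 (10 targets higher, 2 partners lower, 2 precursor genes higher), without robust estimation 550 and 335 (9, 2 and 2) and with a median shift as well 375 and 568 (7, 4 and 2). With normexp they were 293 and 351 (6, 2 and 2), with the scan block 35 and 47 (1 target higher, 1 partner lower) and without si-NC replicates 1 and 3 they were 1090 and 252 (4 targets higher, 1 partner lower, 2 precursor genes higher). With single replicates left out they ranged from 0 to 208 higher and from 0 to 54 lower, and 0 to 1 precursor genes were higher, the highest counts being those without si-NC replicate 2. The causes were not tested. With the replicate block 0 features were called and Myod1 was -0.78 (adjusted p = 0.198). The deviations of same-numbered samples had a correlation of -0.03 between groups, so the numbers are not shown to pair the samples. With normexp Pax3 was 0.13 (adjusted p = 0.607). Signal over background limits what the second Pax3 probe can show.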
